A study of Mus musculus with 2 samples.

Results

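The expression of 9 genes of the red cell lineage was measured in single cells of mouse bone marrow, out of 25943 genes in the deposited table. They were Gata1, Klf1, Hemgn, Epor, Tfrc, Slc4a1, Rhd, Car1 and Car2, taken by name as regulators and surface or enzyme genes of erythroid cells. They were not chosen by a rule on measured values, but earlier results of these data were known. All 9 were present in the table. 1 library came from male wild-type (WT) mice, 8 to 10 weeks old, in which a stroke had been modelled by blocking an artery of the brain (middle cerebral artery occlusion, MCAO). The other library came from male WT control mice of the same age. All marrow cells of tibias and femurs were loaded without a sort on the BD Rhapsody microwell system, after treatment with a buffer that breaks red blood cells. How many mice entered each library, how long after surgery marrow was taken and whether control mice had a sham operation is not given in the sources used here.

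Red cells arise in the marrow from progenitors that pass through nucleated erythroblast stages, fill with haemoglobin, and then lose the nucleus. GATA1 is the zinc finger transcription factor that the lineage depends on, and it also acts in megakaryocytes, eosinophils, basophils and mast cells. KLF1 is a transcription factor that activates the adult beta-globin gene and many other red cell genes, and Hemgn encodes hemogen, a nuclear protein of blood-forming cells. EPOR is the receptor for erythropoietin, which keeps erythroid progenitors alive. TFRC takes iron-loaded transferrin into the cell, where most of the iron goes into haem. SLC4A1 (band 3) exchanges chloride for bicarbonate in the red cell membrane, RHD belongs to the Rh blood group complex there, and the carbonic anhydrases CAR1 and CAR2 interconvert carbon dioxide and bicarbonate in the cytoplasm.

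The MCAO library held 5398 cells and 35401492 unique molecular identifiers (UMIs, each standing for 1 captured mRNA molecule), and its median cell had 4952. The control library had 5212 cells, 25886279 UMIs and a median of 3344 in a cell, so the MCAO library was the deeper one. Cell classes were rebuilt by clustering without the 9 genes and named from marker lists that hold none of them, and "-like" marks such a rebuilt name. Erythroid-like cells numbered 319 of 5398 in the MCAO library (5.91%, 95% interval 5.30 to 6.57) and 207 of 5212 in the control library (3.97%, 95% interval 3.46 to 4.54). They fell into 3 clusters. Cluster 19 (66 MCAO and 45 control cells) had almost no haemoglobin, with 0.182% of its UMIs from the 4 adult haemoglobin genes. Cluster 11 (201 MCAO and 140 control cells) had 6.45% and cluster 23 (52 MCAO and 22 control cells) had 37.4%. Clusters 11 and 23 each had 4 erythroid markers among their 10 leading genes. Cluster 19 had none there, and its name rests on its marker score alone. That score was 0.656, against 3.98 in cluster 11 and 4.55 in cluster 23. Of the 18 listed erythroid markers, Ahsp is not in the deposited table. In cluster 19, 15 had a UMI in at least 20% of cells, at a median depth of 25477 UMIs. The list includes the 4 haemoglobin genes, so free RNA can enter that count.

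A level is the gene's summed UMIs per 10000 UMIs of a group of cells, and a 95% interval on it covers counting error only. With 1 library per condition there is no replicate, so no difference between the MCAO and control libraries was tested, and cells of 1 library were not treated as replicates. Levels were compared between groups of cells for 1 gene at a time and not between genes.

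In GENCODE vM21 on the mm10 (GRCm38) build, Gata1 lies at chrX:7959260-7978071 on the minus strand, Klf1 at chr8:84901928-84905291 on the plus strand and Hemgn at chr4:46393989-46413506 on the minus strand. Epor lies at chr9:21958897-21963506 on the minus strand and Tfrc at chr16:32608920-32632794 on the plus strand. Slc4a1 lies at chr11:102348824-102366203 on the minus strand and Rhd at chr4:134864536-134896172 on the plus strand. Car1 (chr3:14766216-14808368, minus strand) and Car2 (chr3:14886273-14900770, plus strand) are neighbours on chromosome 3, separated by 77904 bases. All 9 are protein-coding. Car1 overlaps the gene model Gm16399 on the same strand, which is also counted in the table, so reads of the shared stretch cannot be assigned with certainty. The other 8 overlap no annotated gene.

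The stretch before the start of a gene is where a promoter-bound factor such as GATA1 would be looked for, so the 200 bases before each RefSeq start (GRCm38.p6) were searched on both strands for the GATA motif, spelled as AGATAA, with its variants ending in G (spelled as AGATAG) or beginning in T (spelled as TGATAA) and the variant with both changes (spelled as TGATAG). RefSeq promoter entries were matched for 6 of the 9 genes, and none was matched for Slc4a1, Car1 and Car2. The windows of 4 genes (Klf1, Epor, Hemgn and Rhd) held a match, and those of Gata1 and Tfrc did not. In the background, 21.4% of 32851 such windows of all genes held one. A match describes the letters of the window and does not show that a factor binds there. The Klf1, Epor and Rhd windows are shown because their matches lie outside annotated exons, and the Hemgn match, 13 to 8 bases before the start, lies in an annotated exon and is not printed. They are read 5′ to 3′ on the gene's own strand, with the matched bases in capitals. The match lies 80 to 75 bases before the start in Klf1, 54 to 49 before it in Epor and 43 to 38 before it in Rhd. In Klf1 and Epor the motif is read on the other strand, so that the capitals show its complement backwards. The Klf1 stretch (chr8:84901782-84901927, plus strand) stops where the annotated gene begins, and those of Epor (chr9:21963577-21963776, minus strand) and Rhd (chr4:134864336-134864535, plus strand) are whole.
Klf1: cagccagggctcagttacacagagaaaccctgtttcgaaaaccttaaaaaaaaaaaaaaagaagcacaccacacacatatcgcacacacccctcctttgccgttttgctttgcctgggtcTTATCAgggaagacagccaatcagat
Epor: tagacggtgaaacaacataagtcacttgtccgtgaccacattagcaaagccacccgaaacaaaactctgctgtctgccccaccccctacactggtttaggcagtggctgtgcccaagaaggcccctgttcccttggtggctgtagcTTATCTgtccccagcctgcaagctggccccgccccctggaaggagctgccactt
Rhd: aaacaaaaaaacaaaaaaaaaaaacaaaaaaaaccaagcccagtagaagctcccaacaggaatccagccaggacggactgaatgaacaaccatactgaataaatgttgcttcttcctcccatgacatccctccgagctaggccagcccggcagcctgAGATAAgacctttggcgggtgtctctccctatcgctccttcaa

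All 9 genes were higher in erythroid-like cells than in all other marrow cells, by more than 2-fold in both libraries. In the same comparison 18.0% of the 11785 ranked genes were higher and 19.8% lower by more than 2-fold in both libraries. The lowest of the 9 folds was that of Tfrc and the others ranged from 34.3 to 91.8 over both libraries. Between 79.2% and 91.5% of the UMIs of each of the other 8 genes came from erythroid-like cells, in either library. For Tfrc that share was 67.2% in the MCAO library and 57.3% in the control library.

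Among the regulators, Gata1 reached 3.63 UMIs per 10000 in MCAO and 3.66 in control erythroid-like cells, against 0.106 in the other MCAO cells and 0.103 in the other control cells. Erythroid-like cells were thus 34.3-fold (95% interval 30.4 to 38.7) higher in the MCAO library and 35.7-fold (30.9 to 41.3) higher in the control library. Klf1 reached 5.14 and 4.67 in MCAO and control erythroid-like cells, against 0.0685 and 0.0509 in the other cells of each library, which is 75.01-fold and 91.8-fold higher. Hemgn stood apart by 87.7-fold in the MCAO library and 78.8-fold in the control library, with 12.6 and 10.6 UMIs per 10000 in erythroid-like cells against 0.143 and 0.134 in the others. For each of the regulators, the erythroid-like interval lay clear of that of every other class in both libraries.

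The receptors differed in how far they marked the lineage. Epor had 2.09 UMIs per 10000 in MCAO and 2.13 in control erythroid-like cells, against 0.0416 and 0.0368 in the other cells, or 50.2-fold and 58.0-fold higher. Tfrc had 13.4 and 10.6 in erythroid-like cells, against 0.804 and 0.843 in the others, or 16.6-fold (95% interval 15.8 to 17.4) and 12.5-fold (11.8 to 13.3) higher. Its folds lay below those of the other 8 genes in both libraries, and its level in the other cells was in part that of lymphoid and myeloid precursors, described below.

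Of the membrane proteins, Slc4a1 had 18.4 UMIs per 10000 in MCAO and 13.7 in control erythroid-like cells, against 0.307 and 0.205 in the others, or 60.0-fold and 66.8-fold higher. Rhd had 7.78 and 7.29 against 0.119 and 0.0962, or 65.6-fold and 75.8-fold higher. Of the enzyme genes, Car1 had 20.2 and 16.2 against 0.274 and 0.190, or 73.6-fold and 85.2-fold higher, and Car2 had 91.8 and 86.6 against 1.34 and 1.39, or 68.7-fold and 62.5-fold higher.

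These folds moved with the way cells were clustered. When the described genes were allowed into the clustering, its cells joined a progenitor-like cluster, and all 9 genes were still past 2-fold. On the log2 scale, the erythroid-like over other ratio of Car1 was then 2.81 in the MCAO library and 3.17 in the control library, in place of 6.10 and 6.27. That of Car2 was 4.72 and 4.50, in place of 6.08 and 5.94. Klf1 came to 4.54 and 4.44, in place of 5.87 and 6.05, Gata1 to 3.998 and 3.71, in place of 4.86 and 4.91, and Epor to 4.09 and 4.15, in place of 5.10 and 5.24. Slc4a1 came to 6.57 and 6.81, in place of 5.82 and 5.93, so its ratio was larger.

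**Figure D1:**
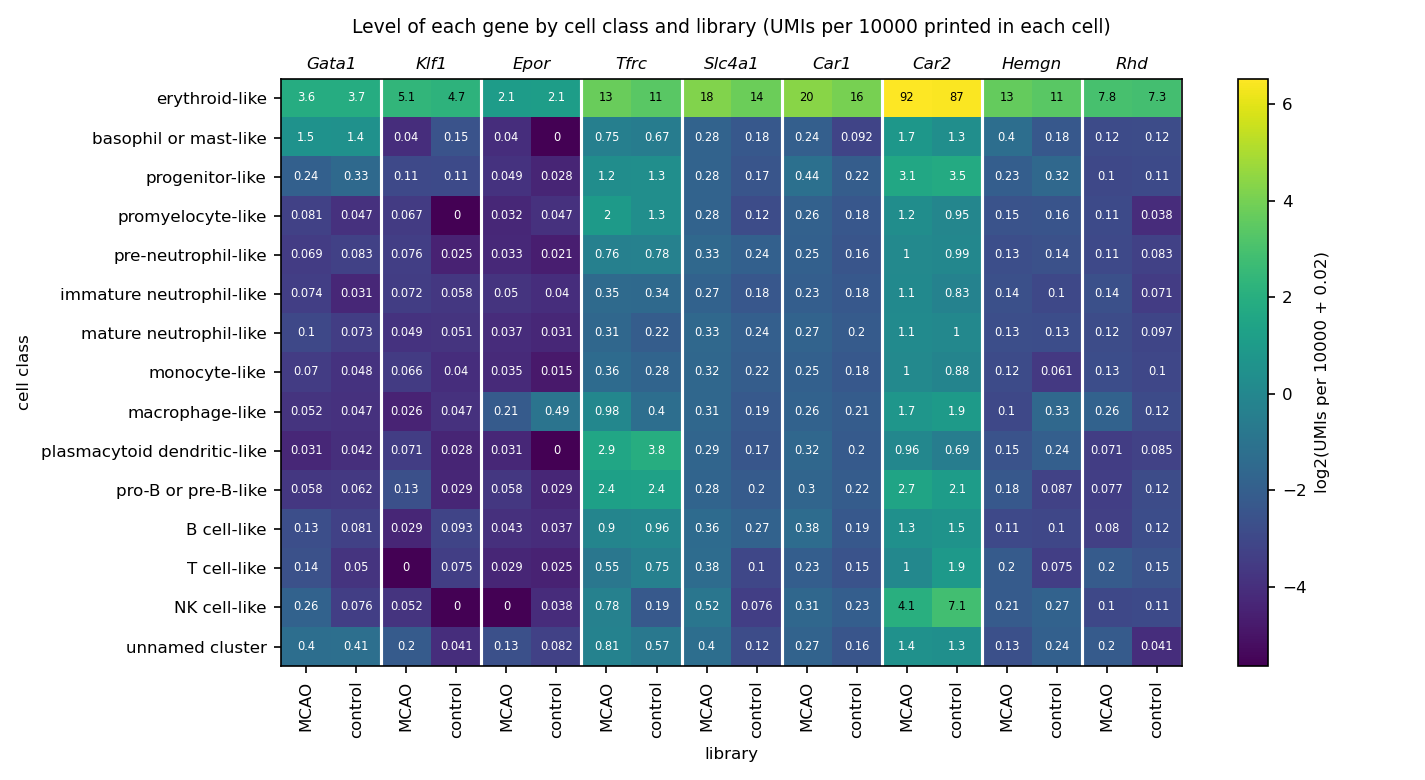
Level of each of the 9 genes (UMIs per 10000 UMIs of the class, printed in each cell, colour on a log2 scale after adding 0.02) by cell class (rows) and library (columns, MCAO left of control). The erythroid-like row is the highest for every gene, with Gata1 next in basophil or mast-like cells (1.47 MCAO, 1.41 control) and Car2 next in NK cell-like cells (4.11 MCAO, 7.08 control).

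Low levels in other classes need a background, since droplet and microwell libraries carry free RNA. B cell-like cells, which do not make haemoglobin, had 17.4 haemoglobin UMIs per 10000 in the MCAO library and 10.4 in the control library, and all other cells together had 16.0 and 9.21. Levels of Klf1, Slc4a1, Car1, Hemgn and Rhd outside the erythroid-like class were low throughout. Over the 14 other classes Slc4a1 reached at most 0.520, in MCAO NK cell-like cells, and for none of the 5 genes was the highest of these classes apart from the next one. Hemgn in progenitor-like cells, at 0.230 in the MCAO library and 0.323 in the control library, was above its B cell-like level of 0.109 and 0.0997. The 2 intervals overlapped in the MCAO library (0.174 to 0.299 and 0.0608 to 0.179) and were apart in the control library (0.245 to 0.417 and 0.0570 to 0.162). Only 4 MCAO and 3 control cells outside the class held 10 or more UMIs of these 5 genes together, 1 of the 4 was marked as a doublet, and they held 2.33% and 2.59% of the outside UMIs of these genes. The rest was spread thinly.

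In the other cells, Slc4a1 was 1.497-fold (95% interval 1.34 to 1.67), Car1 1.44-fold (1.28 to 1.62) and Klf1 1.35-fold (1.07 to 1.70) higher in the MCAO library than in the control library. The haemoglobin level of those cells was higher in the MCAO library as well, as given above, and its part in these differences was not tested. None of the 9 genes passed 1.5-fold in either direction there, with 0.666% of 10365 ranked genes higher and 3.96% lower by that fold.

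4 genes had a second class that stood out, Epor on few UMIs. Gata1 reached 1.47 UMIs per 10000 (95% interval 1.03 to 2.02) in MCAO and 1.41 (1.03 to 1.88) in control basophil or mast-like cells, a class named from Prss34, Mcpt8, Cpa3 and other granule and receptor genes. Its level there was apart from the erythroid-like level above it and from the next classes below it in both libraries. Each cell was then thinned to 1000 UMIs. A Gata1 UMI remained in 12% of 50 MCAO and 7.27% of 55 control basophil or mast-like cells, against 1.08% and 1.04% of B cell-like cells. Unthinned, those shares were 46.0% and 38.2% against 3.23% and 1.85%, at median depths of 3379.5 and 3678 UMIs against 2160 and 1965. An unnamed cluster led by Jchain and holding the eosinophil genes Prg2, Epx and Ear1 had a Gata1 level of 0.404 in the MCAO library and 0.408 in the control library, from 6 and 10 UMIs. At Leiden resolution 2, these genes led separate clusters, eosinophil-like (45 cells, median depth 1450 UMIs) and plasma cell-like (16 cells, median depth 14338 UMIs). The unnamed cluster thus held genes of both types, and its level is not that of eosinophil-lineage cells alone. Progenitor-like cells had a Gata1 level of 0.242 and 0.334, with intervals that overlapped those of the unnamed cluster. NK cell-like cells had 0.260 in the MCAO library, on 5 UMIs.

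Tfrc was second highest in plasmacytoid dendritic-like cells, at 2.95 UMIs per 10000 (95% interval 2.62 to 3.31) in the MCAO library and 3.84 (3.40 to 4.33) in the control library. Pro-B or pre-B-like cells came next, at 2.36 and 2.44, and promyelocyte-like cells after them, at 1.97 and 1.28. B cell-like cells had 0.899 and 0.959 and mature neutrophil-like cells 0.312 and 0.219. The Tfrc levels of precursors therefore stood above those of their mature neighbours in both the B cell and the neutrophil classes. The intervals of plasmacytoid dendritic-like and pro-B or pre-B-like cells overlapped in the MCAO library and were apart in the control library.

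Car2 was second highest in NK cell-like cells, at 4.11 UMIs per 10000 (95% interval 3.25 to 5.12) in the MCAO library and 7.08 (6.09 to 8.17) in the control library. After thinning, 26.2% of 42 MCAO and 35.1% of 37 control NK cell-like cells had a Car2 UMI, against 11.2% and 11.1% of B cell-like cells. Unthinned, the NK cell-like shares were 64.3% and 89.2% at median depths of 3230.5 and 5410 UMIs, against 25.1% and 23.6% of B cell-like cells at the depths given above. Progenitor-like cells had a Car2 level of 3.11 and 3.49, and the NK cell-like interval overlapped theirs in the MCAO library (2.89 to 3.34) and was apart from it in the control library. Pro-B or pre-B-like cells had 2.75 and 2.11, while B cell-like cells had 1.34 and 1.48. Epor was second highest in macrophage-like cells, at 0.207 (8 UMIs) in the MCAO library and 0.494 (21 UMIs) in the control library. Its interval there was apart from the next class only in the control library, and the 21 UMIs came from 7 cells. Macrophage-like cells had 20.2 haemoglobin UMIs per 10000 in the MCAO library and 25.3 in the control library. B cell-like cells had 17.4 and 10.4. The part of erythroid RNA in the macrophage-like Epor level was not tested.

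Within the erythroid-like class the 9 genes did not follow 1 pattern. Ordered by haemoglobin share from cluster 19 through cluster 11 to cluster 23, Gata1, Klf1, Epor, Hemgn and Rhd were highest in cluster 11 in both libraries. Tfrc, Slc4a1 and Car2 were highest in cluster 23 and Car1 in cluster 19. From cluster 19 to cluster 11, Tfrc, Slc4a1, Hemgn and Rhd were higher by more than 2-fold in both libraries, against 5.03% of the 8894 ranked genes, and none of the 9 was lower by that fold, against 11.4%. From cluster 11 to cluster 23, Slc4a1 alone of the 9 was higher by more than 2-fold in both libraries, against 4.24% of the 7052 ranked genes. Gata1, Klf1, Epor, Car1 and Hemgn were lower by that fold, beside 56.0% of all ranked genes, so a lower level there is what most genes showed.

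The regulators peaked in the middle cluster. The Gata1 level through clusters 19, 11 and 23 was 2.92, 4.45 and 0.965 in the MCAO library and 3.58, 3.92 and 0.292 in the control library. The difference between clusters 19 and 11 lay outside counting error in the MCAO library (1.52-fold, 95% interval 1.36 to 1.71) and within it in the control library (1.09-fold, 0.959 to 1.25). Klf1 had 3.80, 6.51 and 1.69 UMIs per 10000 through the same clusters in the MCAO library and 3.83, 5.64 and 1.17 in the control library. Cluster 11 was above cluster 19 by 1.71-fold and 1.47-fold. Hemgn had 2.85, 20.6 and 6.90 in the MCAO library and 3.02, 17.8 and 7.003 in the control library, so that cluster 11 was 7.22-fold and 5.91-fold above cluster 19. The control values of Gata1 and Epor in cluster 23 rest on 2 UMIs each among 22 cells.

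The receptors parted in the last cluster. Epor followed Gata1, with 1.66, 2.55 and 0.772 UMIs per 10000 through clusters 19, 11 and 23 in the MCAO library and 1.77, 2.58 and 0.292 in the control library. Tfrc instead had 6.45, 18.0 and 20.2 in the MCAO library and 6.02, 14.2 and 21.4 in the control library. Cluster 23 was thus 0.302-fold of cluster 11 for Epor in the MCAO library, whereas for Tfrc it was 1.12-fold in the MCAO library and 1.51-fold in the control library.

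Slc4a1 changed most of the membrane genes. It had 0.312, 27.5 and 66.9 UMIs per 10000 through clusters 19, 11 and 23 in the MCAO library and 0.273, 23.5 and 64.2 in the control library. In cluster 19 its interval overlapped that of B cell-like cells, at 0.362 in the MCAO library and 0.268 in the control library, so it was not detectable above the free RNA background there. Haemoglobin in cluster 19, at 21.9 and 13.2, was near the B cell-like level of 17.4 and 10.4 but above it in both libraries. Cluster 11 was 88.1-fold above cluster 19 in the MCAO library (95% interval 66.8 to 119) and 86.1-fold in the control library (60.9 to 126), and given that background these ratios describe measured levels and not the fold of the cells' own transcript. Rhd had 3.14, 11.2 and 9.70 in the MCAO library and 3.67, 10.7 and 5.84 in the control library, and unlike Slc4a1 it was already far above its B cell-like level (0.0797 and 0.125) in cluster 19.

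The 2 carbonic anhydrases went opposite ways. Car1 had 31.0, 13.8 and 0.627 UMIs per 10000 through clusters 19, 11 and 23 in the MCAO library and 21.9, 11.8 and 0.438 in the control library. Car2 had 61.8, 110.5 and 136 in the MCAO library and 67.8, 102.6 and 113 in the control library. Car1 in cluster 23 rests on 13 MCAO and 3 control UMIs, and its interval there included the B cell-like level of 0.377 in the MCAO library and of 0.187 in the control library.

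**Figure D2:**
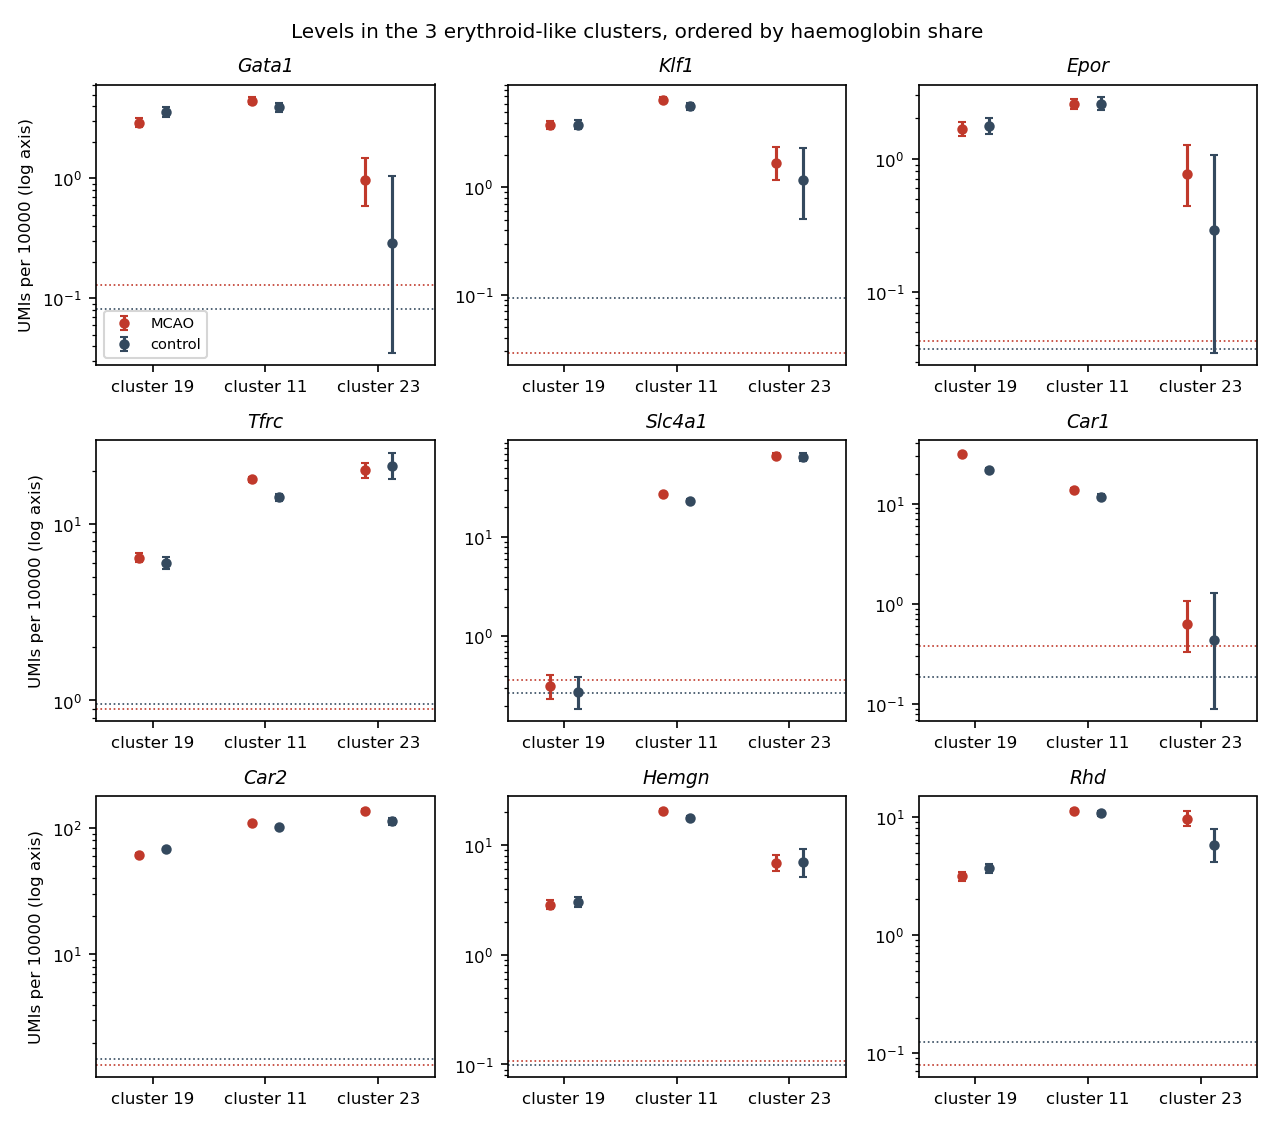
Level of each gene (UMIs per 10000, log axis) in erythroid-like clusters 19, 11 and 23, ordered by haemoglobin share, with MCAO left of control. Bars are 95% Poisson intervals (counting error only) and dotted lines mark the B cell-like level in each library. Slc4a1 lies on that line in cluster 19 (0.312 MCAO, 0.273 control) and Car1 approaches it in cluster 23 (0.627 MCAO, 0.438 control).

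Because haemoglobin genes take 37.4% of the UMIs of cluster 23, every other gene is diluted there, and levels were also taken per 10000 UMIs without the haemoglobin genes. On that scale Hemgn no longer passed the 2-fold limit between clusters 23 and 11, while Gata1, Klf1, Epor and Car1 still did, beside 42.8% of all ranked genes, and Slc4a1 was still higher, beside 7.12%. Rhd in the MCAO library was then higher in cluster 23 than in cluster 11, the reverse of its order with haemoglobin counted. The 526 erythroid-like cells were then cut into 4 bins of equal number by haemoglobin share, at 0.977%, 6.45% and 22.3%, with 12, 29 and 28 cells lying within 10% of each cut. Bins are ranges of 1 measure and not cell types.

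Without haemoglobin UMIs, Slc4a1 through the 4 bins had 0.653, 19.5, 48.1 and 95.7 UMIs per 10000 in the MCAO library and 0.832, 16.3, 55.0 and 94.3 in the control library. Tfrc went 6.66, 14.9, 28.4 and 34.3 in the MCAO library and 6.76, 12.5, 22.5 and 32.6 in the control library. Rhd had 3.54, 9.81, 14.3 and 21.9 in the MCAO library and 4.19, 9.30, 17.0 and 19.96 in the control library. These 3 surface genes were higher in each bin than in the one before it, in both libraries. Car2 showed the same order, with 64.1, 108, 135 and 207 in the MCAO library and 72.8, 102, 118 and 184 in the control library. Car1 showed the reverse order, with 30.3, 17.4, 10.4 and 1.32 in the MCAO library and 20.4, 14.9, 8.60 and 1.61 in the control library.

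The regulators and Epor had their highest values in bin 3, the last but one. Gata1 had 3.01, 4.47, 5.76 and 2.77 UMIs per 10000 without haemoglobin in the MCAO library and 3.65, 4.05, 4.39 and 2.64 in the control library. Klf1 had 3.83, 6.89, 7.66 and 5.37 in the MCAO library and 4.08, 5.77, 6.75 and 4.02 in the control library. Epor had 1.65, 2.42, 3.30 and 2.98 in the MCAO library and 1.80, 2.18, 4.47 and 2.87 in the control library. The order of neighbouring bins was often within counting error for these genes. Hemgn stayed high after bin 3, with 3.38, 16.0, 33.6 and 28.4 in the MCAO library and 3.87, 15.04, 32.6 and 28.9 in the control library.

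Between the highest and the lowest bin, 5 genes (Tfrc, Slc4a1, Car2, Hemgn and Rhd) were higher by more than 2-fold in both libraries on the scale without haemoglobin, against 8.7% of 7759 ranked genes, and Car1 was lower, against 39.8%. With haemoglobin in the denominator Car2 no longer passed, leaving 4 higher against 5.65%, and Car1 remained the 1 lower gene against 53.9%. Depth ran with the bins: the median cell had 24527, 15541, 6667 and 3992 UMIs in the MCAO library and 22671, 14804, 3156 and 2892.5 in the control library. Levels are shares of UMIs, and the part of depth in these orders was not tested.

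**Figure D3:**
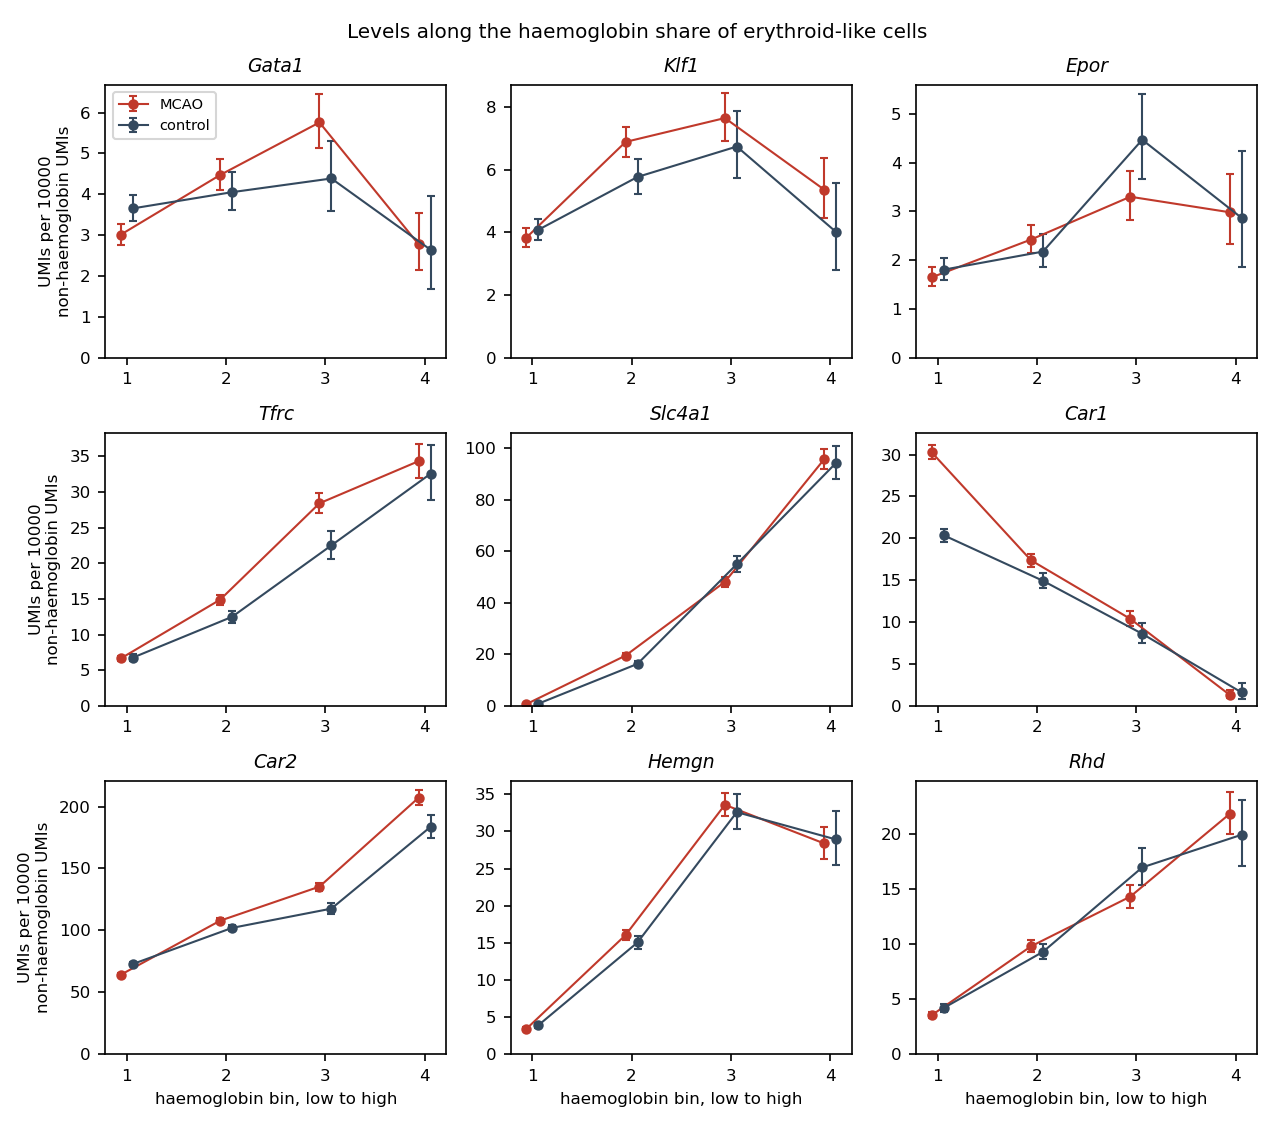
Level of each gene (UMIs per 10000 UMIs without haemoglobin genes, linear axes from 0) in 4 bins of erythroid-like cells by haemoglobin share, low to high, in the MCAO and control libraries, with 95% Poisson intervals. Slc4a1 ends at 95.7 (MCAO) and 94.3 (control) and Car1 at 1.32 (MCAO) and 1.61 (control), while Gata1, Klf1 and Epor are highest in bin 3.

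Joint detection in single cells was counted next. Gata1 and Klf1 UMIs occurred together in 55 of 66 MCAO and 41 of 45 control cells of cluster 19, in 137 of 201 and 83 of 140 cells of cluster 11, and in 7 of 52 and 1 of 22 cells of cluster 23. Median depth per cell in these clusters was 25511, 8072 and 4062 UMIs in the MCAO library and 25477, 5326 and 3343 in the control library, so joint detection had most UMIs to draw on in cluster 19. Thinned to 1000 UMIs, Gata1 was found in 29.7% of MCAO and 28.9% of control cells of cluster 19, in 33.0% and 37.3% of cluster 11 and in 5.77% and 4.76% of cluster 23. At equal depth, detection of Gata1 thus differed between clusters 19 and 11 by less than the counting error. Slc4a1 at that depth was found in 7.81% and 0% of cluster 19 cells (0 of 45 control cells, 95% interval up to 7.87%), in 85.6% and 81.7% of cluster 11 cells, and in every thinned cell of cluster 23.

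Cells of 1 cluster varied widely. In cluster 11 the Slc4a1 level per cell had a median of 33.0 UMIs per 10000 in the MCAO library (lowest 0, highest 184) and 31.0 in the control library (lowest 0, highest 195). Car2 there had a median of 107 (0 to 251) in the MCAO library and 94.98 (0 to 278) in the control library. Gata1 was at 0 in 50 of 201 MCAO and 44 of 140 control cells of that cluster. The MCAO and control cells overlapped over nearly the whole range for each of these genes.

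Between the libraries, none of the 9 genes differed by more than 1.5-fold in erythroid-like cells in either direction. Of 8951 ranked genes, 2.63% were higher and 4.32% lower in the MCAO library by that fold. Slc4a1 was 18.4 UMIs per 10000 in MCAO and 13.7 in control erythroid-like cells, 1.34-fold (95% interval 1.29 to 1.40) higher in the MCAO library. Tfrc (13.4 and 10.6) was 1.26-fold (1.21 to 1.32), Car1 (20.2 and 16.2) 1.25-fold (1.20 to 1.29) and Hemgn (12.6 and 10.6) 1.19-fold (1.13 to 1.25) higher. Klf1 was 1.10-fold (1.02 to 1.18), Rhd 1.07-fold (1.01 to 1.13) and Car2 1.06-fold (1.04 to 1.08) higher, and for Gata1 (0.992-fold, 0.912 to 1.08) and Epor (0.979-fold, 0.877 to 1.09) the interval included no difference. These intervals carry no variation between animals or libraries, so the differences cannot be told apart from those between any 2 libraries.

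The make-up of the class moved beside these values. Cluster 23, where Slc4a1 was highest, held 16.3% of MCAO and 10.6% of control erythroid-like cells, cluster 11 held 63.0% and 67.6%, and the haemoglobin level of the class was 581 UMIs per 10000 in the MCAO library and 389 in the control library. With the 4 haemoglobin bins weighted alike, the log2 ratio of Slc4a1 was -0.012 in place of 0.42. That of Tfrc was 0.20 in place of 0.34, while that of Car1 was 0.39 in place of 0.32. With clusters 19, 11 and 23 weighted alike in place of the bins, the log2 ratio was 0.11 for Slc4a1, 0.099 for Tfrc and 0.41 for Car1. The part of the class make-up in these differences was not tested.

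Within clusters the ratios spread further. In cluster 19, Car1 was 31.0 UMIs per 10000 in MCAO and 21.9 in control cells, 1.42-fold (95% interval 1.35 to 1.49) higher in the MCAO library. In the same cluster Gata1 was 0.815-fold (0.712 to 0.931), Rhd 0.857-fold (0.752 to 0.977) and Car2 0.911-fold (0.884 to 0.938) of the control level, at nearly equal median depth. None passed 1.5-fold, beside 4.15% of 7317 ranked genes higher and 4.65% lower. In cluster 11, Tfrc was 18.0 in MCAO and 14.2 in control cells, 1.26-fold (1.19 to 1.34) higher, and Slc4a1, Car1, Hemgn, Klf1 and Gata1 were 1.13-fold to 1.17-fold higher, with no gene past 1.5-fold, beside 2.81% higher and 6.53% lower of 6940 ranked genes.

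Cluster 23 was thin, with 52 MCAO and 22 control cells, and 5 of the 9 genes passed the ranking filter there. Rhd was 9.70 UMIs per 10000 (201 UMIs) in MCAO and 5.84 (40 UMIs) in control cells, 1.66-fold (95% interval 1.18 to 2.40) higher and the 1 ranked gene of the 9 past 1.5-fold, beside 12.7% of 544 ranked genes higher and 7.54% lower. In the control library, 62.5% of those Rhd UMIs came from 5 cells. Car2 was 1.20-fold (1.11 to 1.30) higher and Slc4a1 1.04-fold (0.935 to 1.16). Gata1 had 20 MCAO and 2 control UMIs (3.31-fold, 0.804 to 29.2) and Epor 16 and 2 (2.65-fold, 0.622 to 23.7), and both intervals included no difference.

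**Figure D4:**
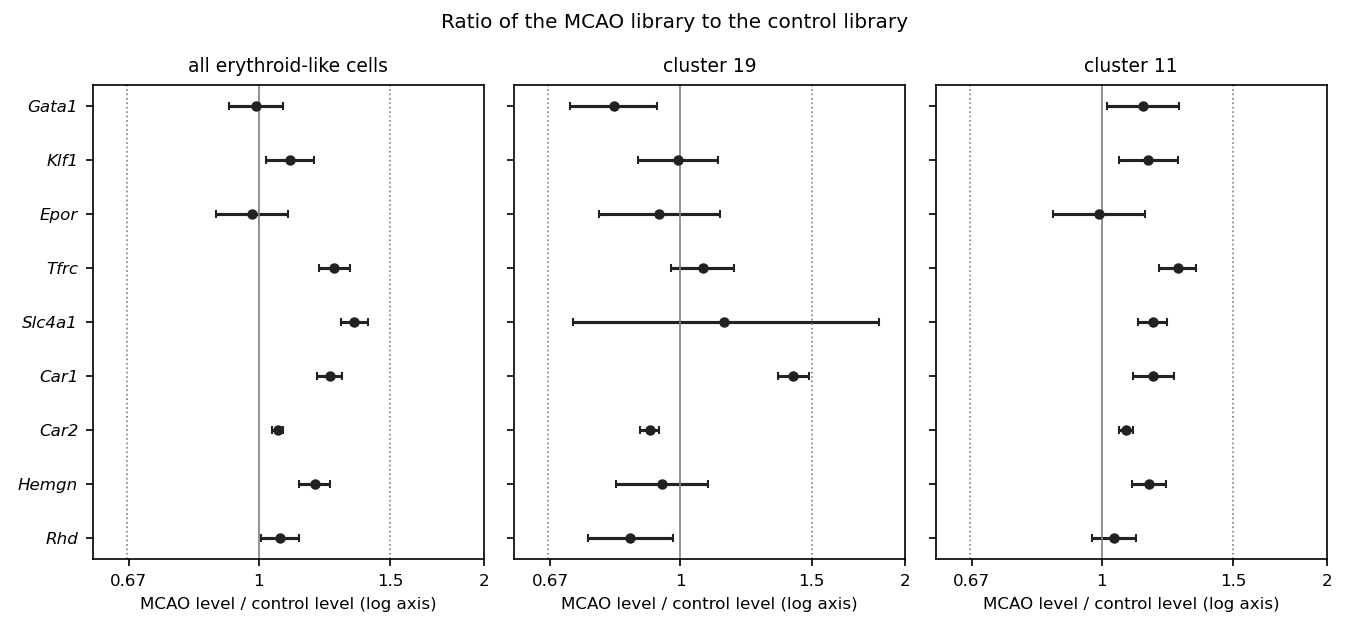
Ratio of the MCAO level to the control level for each gene (log axis) in all erythroid-like cells, cluster 19 and cluster 11, with 95% intervals that cover counting error only. The solid line marks equal levels and the dotted lines a 1.5-fold difference in either direction, which no gene passed, and Gata1 lies at 0.815 in cluster 19 and 1.13 in cluster 11.

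Other genes of the same pathways were counted in lists of 8 kinds, in MCAO over control erythroid-like cells, where the median log2 ratio of all ranked genes was -0.06. Among 16 erythroid regulators, which include partners of GATA1 such as Tal1 and Lmo2, none was higher and 1 was lower by more than 1.5-fold, with a median of -0.01, beside 2.63% of all ranked genes higher and 4.32% lower. The lower one was Cbfa2t3, a corepressor found in GATA1 complexes, at 0.875 UMIs per 10000 in MCAO and 1.36 in control cells (0.641-fold, 95% interval 0.550 to 0.747), and it was 0.756-fold in cluster 19 and 0.518-fold in cluster 11. Bcl11a, a repressor of embryonic globin genes, was 0.727-fold and Gfi1b, a repressor needed for erythroid maturation, 0.774-fold of control, while Nfe2, a factor that binds the globin locus control region, was 1.30-fold higher.

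Of 13 measured erythropoietin signalling genes 8 were ranked, of which 2 were higher and none lower by that fold, against 2.63% and 4.32% of all ranked genes, with a median of 0.08. These 2 were Bcl2l1, which encodes the survival protein BCL-XL, at 0.926 UMIs per 10000 in MCAO and 0.536 in control cells (1.73-fold, 95% interval 1.41 to 2.12), and the kinase Pim1, at 2.81 and 1.70 (1.65-fold, 1.47 to 1.85). Within clusters 19, 11 and 23, Bcl2l1 was 1.10-fold (0.462 to 2.74), 1.17-fold (0.794 to 1.74) and 1.07-fold (0.828 to 1.38) of control, with no interval clear of an equal level. Its level was 12.7 in MCAO and 11.96 in control cells of cluster 23, against 0.389 and 0.334 in cluster 11. Pim1 was 1.46-fold, 1.58-fold and 0.981-fold of control through the same clusters. Stat5a was 1.12-fold and Jak2 1.11-fold of control, both with intervals that included no difference. Of 13 iron genes 2 were higher and none lower, against the same 2.63% and 4.32%, with a median of 0.03. Slc25a37, the mitochondrial iron importer mitoferrin 1, had 15.6 and 9.44 (1.65-fold, 1.58 to 1.73), and was 0.970-fold, 1.39-fold and 1.54-fold of control through clusters 19, 11 and 23. Ncoa4, the ferritin autophagy receptor, had 37 and 14 UMIs (1.70-fold, 0.897 to 3.40). Ftl1, a ferritin light chain, had 26 UMIs in each library (0.643-fold, 0.359 to 1.15), which was not past the limit on the log2 scale after the pseudocount (-0.51).

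Of 20 measured red cell membrane genes 19 were ranked, of which 1 was higher and none lower, against 2.63% and 4.32% of all ranked genes. Their median was 0.22 and 17 of 19 were above 0, where the median of all ranked genes was -0.06. The gene past 1.5-fold was Tmod1, which caps actin filaments, with 45 MCAO and 12 control UMIs (2.41-fold, 95% interval 1.25 to 5.01). Epb41, which encodes protein 4.1, was 1.46-fold higher. Within clusters the membrane list did not lean one way throughout. Above 0 were 7 of 18 ranked membrane genes in cluster 19, 16 of 19 in cluster 11 and 8 of 15 in cluster 23. The list medians there were -0.05, 0.19 and 0.04, beside -0.01, -0.06 and 0.04 for all ranked genes. All 8 haem synthesis genes had a ratio above 1, with a median of 0.23. Of these, 1 was higher and none lower by more than 1.5-fold, against 2.63% and 4.32% of all ranked genes. Within clusters 19, 11 and 23, 3 of 7, 8 of 8 and 5 of 8 ranked haem genes were above 0. Alas2, the first enzyme of the pathway in red cells, was 1.67-fold higher and Fech, its last enzyme, 1.47-fold. Alas2 was 1.15-fold (0.959 to 1.39) in cluster 11 and 1.77-fold (1.27 to 2.53) in cluster 23. All 4 haemoglobin genes had a ratio above 1, with a median of 0.58, and Hbb-bs alone was past 1.5-fold, at 1.54-fold, against the same 2.63% of all ranked genes. In clusters 19 and 11 all 4 were above a log2 ratio of 0, and in cluster 23 1 was above and 3 were below. None of 7 other carbonic anhydrase genes had enough UMIs to be ranked, and their summed level was 0.0823 in MCAO and 0.0960 in control erythroid-like cells. Megakaryocyte genes, which mark the sister lineage that shares Gata1, had a summed level of 0.401 and 0.296. Of the 8, 2 were ranked and none was past 1.5-fold, beside the same 2.63% and 4.32% of all ranked genes. Haem and membrane genes, like Slc4a1, had higher levels in the clusters with more haemoglobin. The summed level of the haem list through clusters 19, 11 and 23 was 29.2, 89.6 and 97.0 in the MCAO library and 28.1, 76.5 and 84.2 in the control library, and the part of the class make-up in the list ratios was not tested.

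Over the 50 sums of cells by cluster and library, the genes whose log2 levels were most like each of the 9 were found among 10180 genes by Pearson's r. These correlations describe the sums, which share 2 libraries, and the erythroid-like clusters set most of the range. Gata1 was most like Tal1 (r = 0.81), which encodes a transcription factor that acts in a complex with GATA1, then Sh3tc2 (0.80) and Mylk3 (0.78). Its best r was the lowest of the 9, beside its level in basophil or mast-like cells. Klf1 was most like Samd14 (0.91), Slc25a21 (0.87) and Cldn13 (0.86), and Epor most like Hebp1 (0.88), Paqr9 (0.87) and Cldn13 (0.86).

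Tfrc was most like Slc25a51 (0.87), Btrc (0.86) and Glrx5 (0.86), the last of which acts in the assembly of iron-sulphur clusters. Slc4a1 was most like 3 haemoglobin genes, Hbb-bt (0.98), Hba-a1 (0.98) and Hbb-bs (0.97). Cldn13 was among the 3 genes most like Rhd (0.93), as it was for Klf1 and Epor. Car1 was most like Garem1 (0.90), Ntn4 (0.90) and the water channel gene Aqp1 (0.90). Car2 and Hemgn were each among the most alike of the other (0.92), and both were close to Kel (0.92 with Car2, 0.93 with Hemgn), the gene of a red cell surface enzyme that carries a blood group. Among the 9 genes themselves, r ran from 0.48 between Slc4a1 and Car1 to that value between Car2 and Hemgn.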

How the data were processed

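Per the submitters' processing notes, reads were processed with Seurat 4.0.6, UMI-tools, STAR and fastp on build mm10. Settings, the gene annotation and the authors' cell filter are not given in the sources used here. In 1 table, the authors deposited natural log values for 25943 genes and 10610 cells of both libraries. As read from the values, the authors had scaled each cell to 10000 and taken the natural log after adding 1. Scaling back gave whole UMIs for 100% of 19373615 values above 0 (tolerance 0.01 UMIs). Column names begin with the Mandarin word for stroke or control, which gave the library. The rest of each name is a serial number (5120 occur in both libraries), so shared barcodes could not be counted. 0 columns of per-sample values were left unused.

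All cells were clustered in 1 run with scanpy 1.11.5 and leidenalg 0.10.2 (2000 variable genes without the 9 described genes, 30 principal components, 20 neighbours, Leiden resolution 1), which gave 25 clusters. A cluster name needed at least 3 markers detected in at least 20% of its cells, and followed the markers in the top 10 genes by fold or, failing that, the highest marker score. 1 cluster stayed unnamed. The study's own cell types may differ in name and border. Doublet scores were set against simulated doublets (2 per cell) and marked 64 MCAO cells (1.19%) and 54 control cells (1.04%), and they were kept in the reported values.

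Levels are summed UMIs per 10000 UMIs, with exact Poisson intervals. Shares have exact binomial (Clopper-Pearson) intervals, and folds have exact intervals conditional on the summed UMIs, all at 95% confidence and for counting error only. Log2 ratios, on which calls were made, add 0.02 per 10000. Genes were ranked with at least 50 UMIs over both groups compared and a UMI in at least 2% of cells in 1 of them. Calls are folds past 2 in both libraries (between groups of cells) or past 1.5 (MCAO over control), since 1 library per group allows no test. The genes named are the 9 described, the 3 most alike to each (at least 200 UMIs, sums of at least 20 cells) and up to 4 of each pathway list furthest from a log2 ratio of 0, except that Tal1 and Lmo2 are also named as examples of a list and that some genes the rule takes are not reported here. The fold intervals were tested on simulated data, and the outcome is not reported here. The genes, lists, markers and limits were chosen with earlier results of these data known. Alternatives were the cluster resolution, doublets, a minimum of 2000 UMIs, the denominator, means over cells, the clustering genes, the pseudocount, the ranking filter and the weighting of bins.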

Additional observations from a re-analysis of the deposited data

Results flagged for a closer look

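For 3 genes the MCAO over control fold ran in opposite directions in different erythroid-like clusters, with both counting intervals clear of equal levels. Gata1 was 0.815-fold of the control level in cluster 19 and 1.13-fold in cluster 11. Car2 was 0.911-fold in cluster 19, against 1.08-fold in cluster 11 and 1.20-fold in cluster 23. Rhd was 0.857-fold in cluster 19 and 1.66-fold in cluster 23. With 1 library per condition, these differences between clusters were not tested.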

How the results depend on the processing

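All 9 genes stayed past 2-fold in erythroid-like over other cells in both libraries under all 7 alternatives run, and none passed 1.5-fold between MCAO and control erythroid-like cells under any alternative run but 1. Within cluster 23, an alternative chosen after seeing the data, 3 genes were past 1.5-fold higher in the MCAO library (Gata1, Epor and Rhd), the first 2 of them on 2 control UMIs each. Without the ranking filter, 5.37% of genes were higher by 1.5-fold in place of 2.63%, since genes with few UMIs then enter.

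Some MCAO over control log2 ratios changed sign. As a mean over cells, Rhd was -0.084. With the haemoglobin bins weighted alike, Slc4a1 was -0.012 and Rhd -0.037. Within cluster 19, Klf1 was -0.0093, Car2 -0.13, Hemgn -0.080 and Rhd -0.22, and within cluster 23, Tfrc was -0.085 and Hemgn -0.021. The cause was not tested. When the described genes could enter the clustering, the cells of cluster 19 joined a progenitor-like cluster and the erythroid-like over other fold of Car1 came to 2.81 in the MCAO library and 3.17 in the control library on the log2 scale, in place of 6.10 and 6.27. No paired analysis was possible because each condition has 1 library.

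Depth limits cluster 23 most, where 22 control cells held 68542 UMIs, so that 3 UMIs there equal a level of 0.438 per 10000.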
